A study of Rattus norvegicus with 256 samples.

Results

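Gene expression in the thymus was set against that in the bone marrow over every probeset of 17 rat arrays, which are 6.64% of the arrays of a series of 31 organs. The arrays were chosen by their labels alone: 8 name the thymus (4 male, 4 female) and 9 name the bone marrow (5 male, 4 female). By the methods tissue was sampled from each animal, so each array was taken to hold labelled cRNA from 1 organ of 1 animal. The methods name 5 male and 5 female Han Wistar-derived rats (AlpkHsdBrlHan:WIST) with no treatment. All animals were killed by halothane inhalation and their organs were cleaned and frozen, and the sources used here do not give their age. How the marrow was taken from the bone is also not given in the sources used here. Each array measured 31042 probesets, as log2 values summarised with GCRMA, a method that subtracts a background estimated from probe sequence. A difference of 1 on this scale is 2-fold, and the study took a probeset as expressed where its mean exceeded a set value, close to a signal of 100 on the linear scale (6.7 in log2), which is the expression threshold below.

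Thymus and bone marrow are the primary lymphoid organs. The bone marrow makes red cells, platelets, granulocytes, monocytes and B cells from stem cells held in a niche of bone, stroma and vessels. The thymus takes in progenitors from the marrow and, under Notch signals from its epithelium, turns them into T cells. Thymocytes rearrange their T cell receptor genes, carry CD4 and CD8 together for a time, and mostly die unless their receptor binds self MHC molecules within a suitable range. As whole organs were homogenised, fewer cells of a type and less RNA per cell cannot be told apart in any difference below.

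Before the comparison, the arrays were checked against their labels. Eif2s3y, carried on the Y chromosome, read 9.83 to 10.67 on the thymus arrays labelled male and 2.66 to 3.30 on those labelled female, while the mean of 4 Xist probesets read 2.36 to 2.94 and 9.41 to 10.29. In bone marrow every array labelled female lay between the thymus levels of the sexes, and 2 arrays stood furthest from their label. The array labelled bone marrow male 5 read 6.04 for Eif2s3y and 7.10 for Xist, and the array labelled bone marrow female 2 read 8.43 for Eif2s3y and 6.82 for Xist. The other 4 marrow arrays labelled male read 10.46 to 10.80 for Eif2s3y and 2.57 to 2.92 for Xist, and the other 3 labelled female read 4.10 to 5.82 and 7.55 to 7.80. Bone marrow male 5 and bone marrow female 2 nonetheless read as marrow, with Alas2 at 13.18 on each and Cd8b at 2.20 and 2.19. On bone marrow male 5 and every marrow array labelled female, Eif2s3y read above its thymus female levels and Xist above its thymus male levels. Whether these arrays held RNA of more than 1 animal was not tested. Arrays correlated at 0.979 to 0.991 within thymus and 0.978 to 0.990 within marrow, against 0.865 to 0.892 between the organs. Organ and any run in which its arrays were processed cannot be told apart. The markers Rag1 and Mpo were not analysed here, and the organs were checked with other markers. Cd8a, Cd8b and Cd3e averaged 12.59, 11.93 and 13.32 in thymus, against 4.25, 2.29 and 5.91 in marrow. Camp and Alas2 averaged 6.24 and 2.89 in thymus, against 13.17 and 13.21 in marrow.

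**Figure D1:**
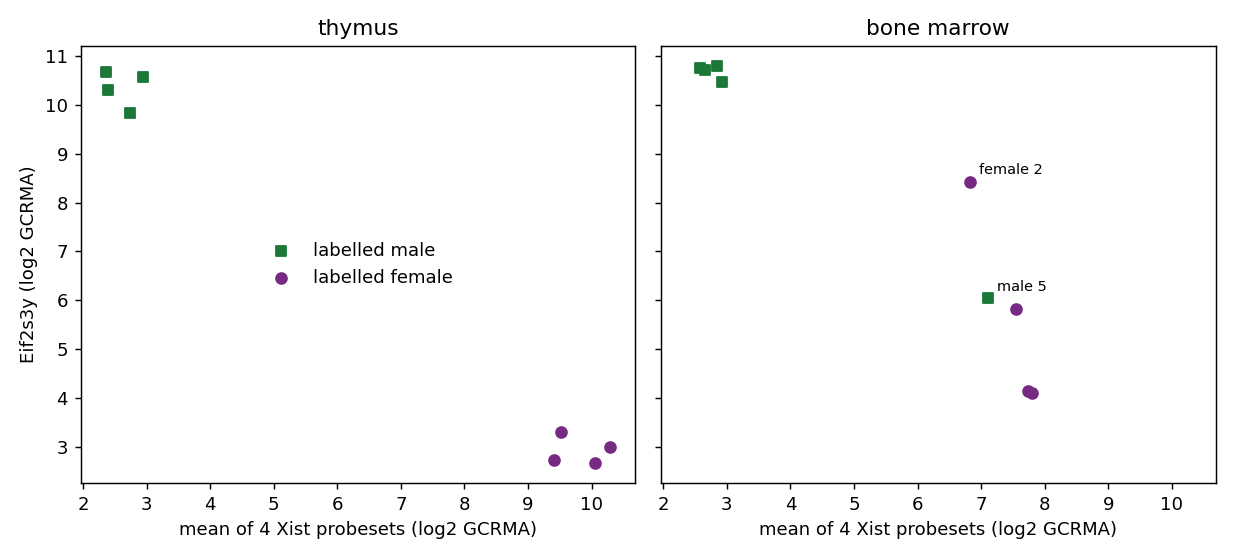
Level of Eif2s3y (y axis, log2 GCRMA) against the mean of 4 Xist probesets (x axis, log2 GCRMA) on each thymus array (left) and bone marrow array (right), squares for arrays labelled male and circles for those labelled female. Bone marrow male 5 (6.04 for Eif2s3y) and bone marrow female 2 (8.43) lie away from the arrays of their label. The other marrow arrays labelled female also lie between the thymus levels of the sexes.

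A probeset was called when the adjusted p was under 0.05, the difference exceeded 2-fold and the mean exceeded the expression threshold in at least 1 of the organs (limma, Benjamini-Hochberg over all 31042 probesets). Of these probesets, 4898 (15.8%) were called. They comprised 3151 probesets (10.2%) higher in thymus and 1747 (5.63%) higher in bone marrow, and on 4520 of the called probesets no thymus array overlapped a marrow array. Over all probesets 17688 (57.0%) did not overlap. At the expression threshold 9925 probesets were expressed in thymus and 9004 in marrow, 2132 in thymus alone and 1211 in marrow alone. The larger differences lay on the marrow side: 267 called probesets were over 16-fold higher in thymus and 364 in marrow, and for 13 and 30 the difference was over 8 log2 units. The split of calls moved with scaling. After quantile normalization of the 17 arrays it was 2215 higher in thymus and 2152 higher in marrow, and after centring on the median of the probesets expressed in both it was 2172 and 2204. Centring shifted the median difference over all probesets to -0.38, against -0.09 as deposited. No called probeset changed direction under either scaling.

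**Figure D2:**
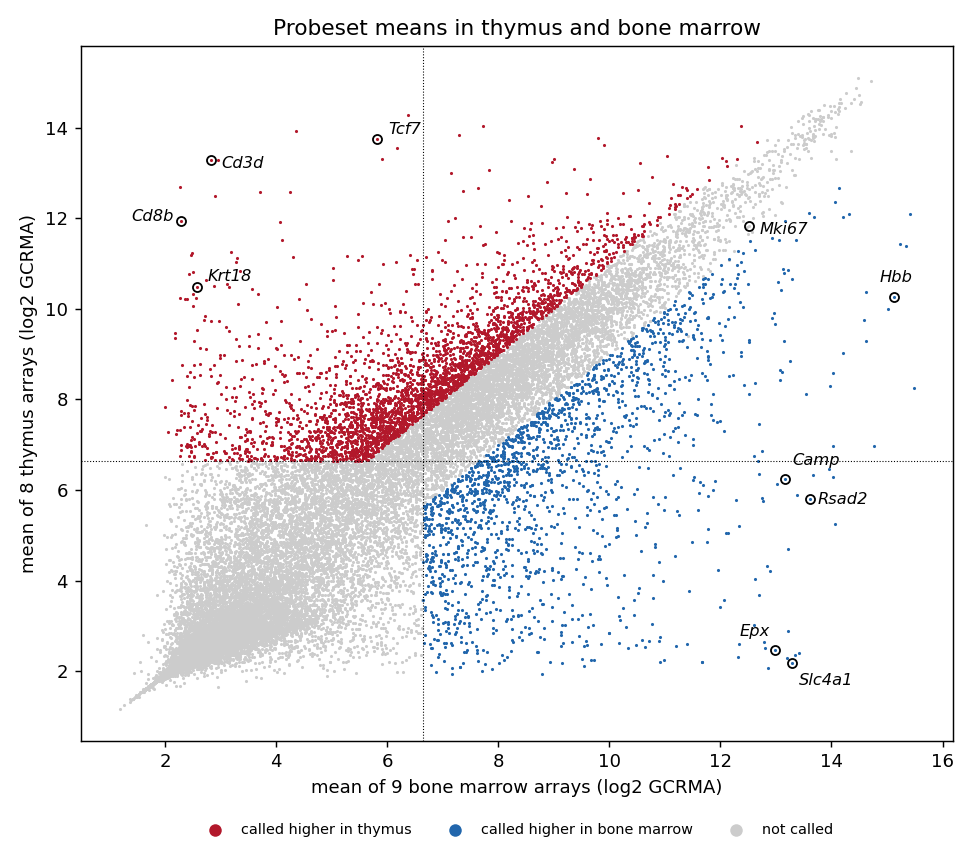
Mean of 8 thymus arrays (y axis) against mean of 9 bone marrow arrays (x axis) for every probeset, both log2 GCRMA, with called probesets in red (higher in thymus, 3151) and blue (higher in bone marrow, 1747) and others in grey. Dotted lines mark the expression threshold, and 10 named genes are circled.

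For gene lists, 1 probeset was taken per gene, that with the highest mean. On this footing 2918 of 14217 genes (20.5%) were called, 1698 (11.9%) higher in thymus and 1220 (8.58%) higher in marrow, 7686 (54.1%) did not overlap, and the median difference was -0.06. List counts below are to be read against these shares, which cover all genes, expressed or not. Of the 11136 probesets expressed in at least 1 organ, 44% were called. Counts of lists whose members were mostly expressed are to be read beside that share too.

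T cell genes were higher in thymus throughout the receptor complex. All 14 measured genes of the T cell receptor complex and its coreceptors were called higher in thymus, with a median difference of 7.42. Under either rescaling 13 of the 14 were called. Cd3d, which encodes a chain of the CD3 complex, ranged from 13.17 through a median of 13.23 to 13.51 in thymus, against 2.29, 2.34 and 5.42 in marrow. Every thymus array stood far above every marrow array, and the marrow arrays themselves were uneven, as female 4 read 5.42 and female 5 read 3.65. The difference was 10.45 ± 0.37 (SE, adjusted p = 1.85e-13), the largest among genes higher in thymus. Cd8b, the beta chain of the CD8 coreceptor, differed by 9.63 ± 0.08 and stayed at 2.18 to 2.69 on all marrow arrays. Its partner Cd8a averaged 12.59 ± 0.13 in thymus and 4.25 ± 1.35 in marrow (SD, n = 8 and 9). In marrow it read 4.91 to 6.38 on the 4 arrays labelled female and 2.48 to 3.75 on the 5 labelled male, all of them below the expression threshold, and the organ difference did not differ between the sexes at the threshold (adjusted p = 0.13). Cd4, the other coreceptor, differed by 7.63 ± 0.11. Cd247, the zeta chain that carries the signal, and Cd5, a brake on receptor signalling, differed by 8.88 ± 0.28 and 7.85 ± 0.38.

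Promoters were searched for short motifs of factors known from these lineages, since members of a list moved together. The 250 bases before the annotated start were read on both strands from RefSeq promoters (GRCr8), and 11700 genes on the array had one. Of the 29 called members of the 3 T cell lists with a promoter, 7 (24.1%) held the RUNX letters TGTGGT, against 11.1% of all promoters. The E-box CAGCTG was in 6 (20.7%), against 12.8%, and the TCF/LEF letters CTTTGA in 4 (13.8%), against 11.1%. Over all genes called higher in thymus the shares were 10.8%, 12.1% and 9.3%. These are matches of letters with no test, and other lists held them too, with the RUNX letters in 15.4% of the called erythroid genes and 26.7% of the called neutrophil genes with a promoter. The promoters of Cd3d and of Cd2, an adhesion receptor of T cells (6.86 higher in thymus, named after its values were seen), are shown because each held a match. In this and the later promoters capitals mark every match, on either strand, to the 6 motifs searched (RUNX, E-box, TCF/LEF, and the GATA, KLF and C/EBP letters given below), here TCF/LEF on the reverse strand in Cd3d and an E-box and a RUNX match in Cd2.
Cd3d, chr8:54185269-54185518, plus strand: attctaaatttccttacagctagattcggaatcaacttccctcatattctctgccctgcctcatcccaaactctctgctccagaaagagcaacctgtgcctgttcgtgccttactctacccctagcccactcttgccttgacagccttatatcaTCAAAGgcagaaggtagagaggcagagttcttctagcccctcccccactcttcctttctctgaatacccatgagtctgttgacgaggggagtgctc
Cd2, chr2:191412660-191412909, minus strand: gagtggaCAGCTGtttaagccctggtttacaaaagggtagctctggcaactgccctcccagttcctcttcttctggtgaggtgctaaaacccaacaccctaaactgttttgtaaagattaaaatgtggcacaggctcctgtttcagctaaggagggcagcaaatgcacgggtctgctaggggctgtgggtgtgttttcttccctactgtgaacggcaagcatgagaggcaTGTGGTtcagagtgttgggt

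Downstream of the receptor, 13 of 18 measured signalling genes were called higher in thymus and none higher in marrow, with a median difference of 2.26. Lck, the kinase that starts the signal, ranged from 13.61 through 13.85 to 14.02 in thymus, against 6.04, 7.30 and 7.92 in marrow, so it was expressed in both organs and differed by 6.54 ± 0.20. Zap70, the kinase recruited to the zeta chain, averaged 11.13 ± 0.15 in thymus and 3.29 ± 0.21 in marrow. The adaptor Skap1 differed by 8.72 ± 0.08, and Rasgrp1, which links the receptor to Ras, by 6.51 ± 0.07. Among members that were not called, Ptprc, the phosphatase CD45, averaged 12.65 ± 0.58 in thymus and 11.79 ± 0.26 in marrow (difference 0.86 ± 0.21, adjusted p = 0.00121), and Csk, which restrains Src kinases, differed by 0.78 ± 0.10, both under the 2-fold limit. Fyn differed by 0.98 ± 0.16 and passed the limit when any of 6 single arrays was left out.

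Genes that cut and join receptor segments were measured in part, as 9 of 12 were on the table under 1 symbol. The recombinase genes Rag1 and Rag2, and Dntt, were not among them, so the counts concern the other members alone. Of the 9 measured, 4 were called higher in thymus and none in marrow, with a median of 0.85. The median was 0.56 after centring, and 0.57 with 3 called after quantile normalization. Dclre1c (Artemis), which opens the hairpin ends left by the recombinase, ranged from 10.58 through 10.83 to 11.32 in thymus, against 4.80, 4.83 and 5.63 in marrow. Its difference was 5.89 ± 0.13, and of the other 29 organs only spleen, at 7.01, had a mean above the threshold. Lig4, which seals the ends, averaged 11.54 ± 0.51 in thymus and 9.08 ± 0.45 in marrow. Its partner Xrcc4 differed by 2.32 ± 0.35, called on 1 of 2 probesets. Xrcc5 (Ku80) differed by 1.32 ± 0.16, likewise on 1 of 2 probesets, and after quantile normalization it was no longer called (1.00). Xrcc6 (Ku70) and Prkdc, the catalytic subunit of the same kinase complex, differed by 0.44 ± 0.07 and 0.85 ± 0.12 and were not called.

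Of 18 measured transcription factors of the T lineage, 14 were called higher in thymus and none higher in marrow, with a median difference of 2.76. Tcf7, a mediator of early T cell commitment, ranged from 13.59 through 13.72 to 14.06 in thymus, against 4.70, 5.97 and 6.92 in marrow. Bcl11b, which locks in T cell fate, averaged 11.04 ± 0.62 in thymus and 3.27 ± 0.23 in marrow, and all 3 of its probesets were called. Tox and Gata3, needed for the CD4 lineage, differed by 6.05 ± 0.18 and 5.15 ± 0.07, and Egr2, induced by receptor signals, by 5.45 ± 0.16. Tox and Egr2 were each called on 1 of 2 probesets, and Gata3 on 2 of 2. Lef1 differed by 4.49 ± 0.36 and was spread in marrow, at 4.38 on male 5 and 7.10 to 7.73 on the other 8 arrays. Myb, used by progenitors of all these lineages, was high in both organs and not called, at 10.93 ± 0.68 in thymus and 11.19 ± 0.43 in marrow. In the Notch pathway only 2 of 16 measured genes were called, both higher in thymus, and 11 of the other 14 lay below the threshold in both organs. These were the receptor Notch1 (8.78 ± 0.12 in thymus, 7.18 ± 0.28 in marrow) and its target Hes1 (8.03 ± 0.18 in thymus, 5.27 ± 0.25 in marrow). The median difference of this list, 0.03, was 0.12 after quantile normalization and -0.26 after centring. Rbpj, the DNA-binding partner of Notch, differed by -0.06 ± 0.10 on its brightest probeset, while both of its other probesets were called higher in thymus.

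Genes of the thymic stroma followed the same direction. Of 19 measured genes of the thymic stroma and epithelium, 13 were called higher in thymus, with a median difference of 4.23. The list held 26 genes, and Foxn1, Psmb11, Prss16 and Aire were not among those measured. Tbata, a protein of thymic stroma and testis, ranged from 11.88 through 12.48 to 13.11 in thymus, against 2.77, 2.87 and 3.02 in marrow, and the testes alone among the other organs passed the threshold (9.62). Keratins of the cortex, Krt8 and Krt18, differed by 7.18 ± 0.13 and 7.93 ± 0.09. Those of the medulla, Krt5 and Krt14, differed by 7.67 ± 0.14 and 7.14 ± 0.08. Ccl21, a chemokine that draws T cells, averaged 10.64 ± 0.38 in thymus and 2.74 ± 0.41 in marrow. Of the other 29 organs, Krt8, Krt18 and Ccl21 passed the threshold in 17, 18 and 22, and Krt5 and Krt14 in 4 each. A single member, Cdh1 (E-cadherin), was called higher in marrow, at 8.14 in thymus and 9.23 in marrow, and is named here after its values were seen. Slc7a11, the cystine and glutamate exchanger, belonged to no list and was among the 12 largest differences, at 11.25 ± 0.45 in thymus and 3.19 ± 0.17 in marrow.

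Antigen presentation was higher in thymus for 10 of 20 measured genes, with none higher in marrow and a median difference of 1.19 (8 genes after centring). The class II gene RT1-Ba averaged 11.84 ± 0.38 in thymus and 7.67 ± 0.58 in marrow, on 1 of its 4 probesets, and RT1-Da averaged 13.23 ± 0.17 in thymus and 10.55 ± 0.30 in marrow. Their master regulator Ciita differed by 2.59 ± 0.18, and the peptide transporter Tap2 by 3.22 ± 0.17. RT1-Bb was uneven within both organs, from 2.89 through 12.55 to 13.50 in thymus, against 3.59, 8.49 and 9.32 in marrow, so its difference of 4.02 (adjusted p = 0.0208) rested on overlapping arrays and was lost in the female arrays alone. RT1 genes are close copies of each other and their probesets may share signal. B2m, the light chain of class I molecules, read 13.75 ± 0.06 in thymus and 13.60 ± 0.07 in marrow, short of 2-fold.

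**Figure D3:**
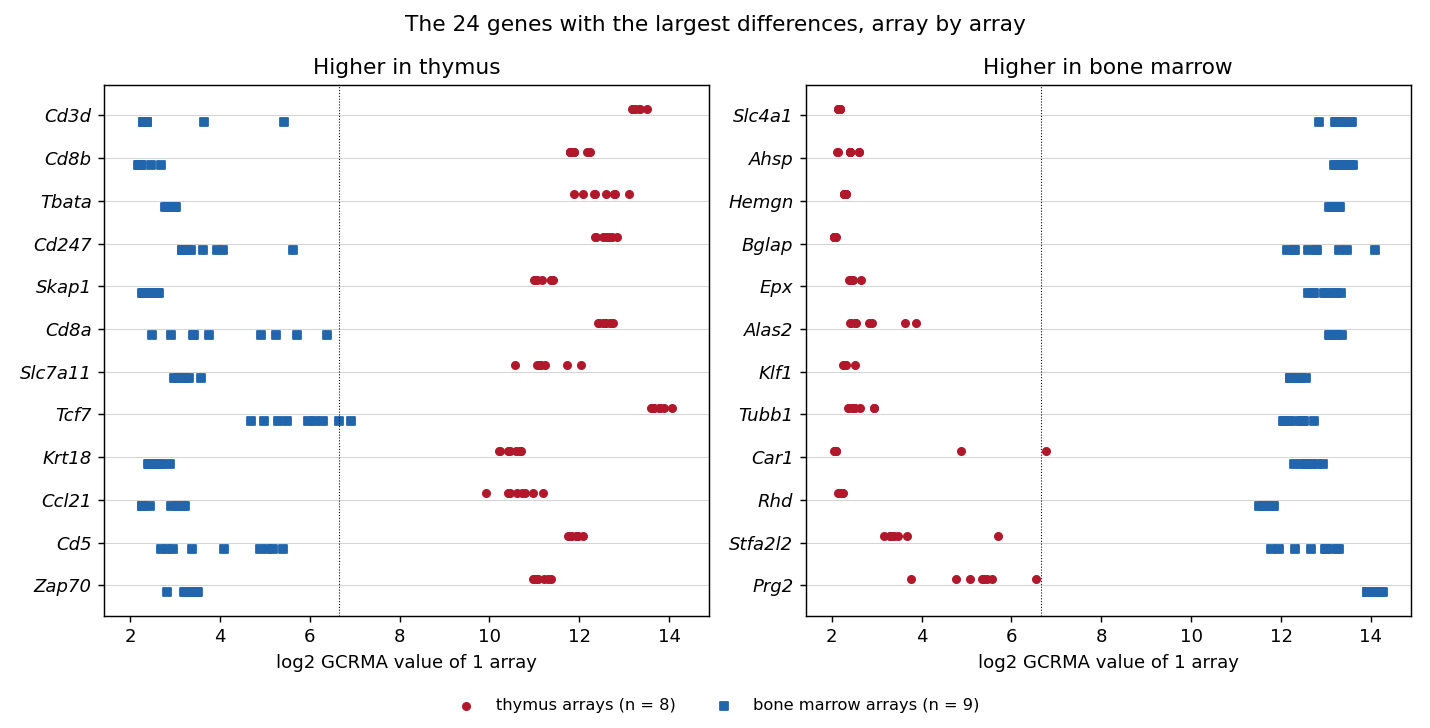
Value of each array (x axis, log2 GCRMA) for the 12 genes with the largest difference higher in thymus (left panel) and the 12 higher in bone marrow (right panel), thymus arrays as red circles and bone marrow arrays as blue squares. The genes were taken from those whose arrays did not overlap, and in the organ where each was low Car1, Cd8a and Cd3d have the widest ranges.

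Erythroid genes included the largest differences towards the marrow, that of Slc4a1 being the largest of all genes named by size. Of 22 measured genes of the red cell membrane and its transcription factors, 21 were called higher in marrow and none in thymus, with a median of -7.28. Slc4a1 (band 3), the anion exchanger of the red cell membrane, ranged from 2.15 through 2.17 to 2.19 in thymus, against 12.84, 13.32 and 13.58 in marrow. The thymus values lay at the low end of the scale, where GCRMA leaves little spread, and the difference was -11.12 ± 0.08 (SE, adjusted p = 4.08e-23). Klf1, the master factor of red cell genes, averaged 2.31 ± 0.09 in thymus and 12.31 ± 0.12 in marrow. Hemgn, a nuclear protein of blood progenitors, differed by -10.91 ± 0.03, and the Rh proteins Rhd and Rhag by -9.47 ± 0.04 and -8.73 ± 0.18. Car1, carbonic anhydrase of red cells, differed by -9.59 ± 0.58 and was uneven in thymus, at 6.77 on female 3, 4.88 on female 5 and 2.04 to 2.10 on the other 6 arrays.

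Haem synthesis and globins followed, with 14 of 16 measured genes called higher in marrow and a median of -4.18. Alas2, the rate-limiting enzyme of haem synthesis in red cells, ranged from 2.40 through 2.68 to 3.87 in thymus, against 13.07, 13.23 and 13.35 in marrow. Ahsp, the chaperone of alpha globin, differed by -11.02 ± 0.08. Slc25a37, which carries iron into mitochondria, and Fech, which inserts it into haem, differed by -7.12 ± 0.25 and -5.44 ± 0.08. Hbb, the beta globin, was above the threshold on every thymus array, from 9.11 through 10.12 to 11.57, against 15.04, 15.09 and 15.24 in marrow. Hba-a3, an alpha globin, was below the threshold on every thymus array (4.69 ± 0.73) and averaged 13.21 ± 0.17 in marrow. Hbb exceeded the threshold in all of the other 29 organs as well, and globin genes have close copies whose signals on an array cannot be parted. Of the 26 called members of these 2 lists with a promoter, 4 (15.4%) held the GATA letters AGATAA, against 6.6% of all promoters, and 2 (7.7%) the KLF letters CCACACCC, against 3.3%. Over all genes called higher in marrow the shares were 6.3% and 4.3%, and the GATA letters were also in 4 of 15 promoters of called neutrophil genes (26.7%). The promoters of Alas2 and Rhd are shown because each held a GATA match. Alas2 also held a TCF/LEF match, and Rhd a KLF match on the reverse strand.
Alas2, chrX:22895200-22895449, plus strand: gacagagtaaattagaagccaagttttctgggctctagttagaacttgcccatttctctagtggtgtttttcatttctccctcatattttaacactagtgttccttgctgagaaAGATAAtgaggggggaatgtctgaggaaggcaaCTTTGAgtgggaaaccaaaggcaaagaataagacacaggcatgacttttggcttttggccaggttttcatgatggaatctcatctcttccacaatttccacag
Rhd, chr5:152370950-152371199, plus strand: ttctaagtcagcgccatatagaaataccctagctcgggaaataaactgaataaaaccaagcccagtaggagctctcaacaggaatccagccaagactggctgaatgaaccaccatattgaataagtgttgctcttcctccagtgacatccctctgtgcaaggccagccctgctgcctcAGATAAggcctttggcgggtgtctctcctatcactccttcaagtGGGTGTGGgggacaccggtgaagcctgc

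All measured neutrophil granule genes were called higher in marrow. These were 7 of 7 measured genes of the primary granules (median -2.22) and 14 of 14 of the secondary and tertiary granules (median -5.39). The primary granule list held 18 genes, and Mpo, Elane, Prtn3, Ctsg, Azu1 and Ms4a3 were not among the 7 measured. Camp, the cathelicidin of the secondary granules, ranged from 4.46 through 6.26 to 7.70 in thymus, against a mean of 13.17 ± 0.13 and a highest value of 13.33 in marrow. The marrow arrays were nearly level and the thymus arrays spread widely. Pglyrp1, Fcnb and Lcn2, which bind parts of bacteria or their iron carriers, differed by -7.07 ± 0.32, -6.01 ± 0.32 and -5.90 ± 0.26. Camp, Lcn2, Fcnb and Pglyrp1 together averaged 7.36 on thymus male 3, 4.77 on thymus male 4 and 4.97 on thymus female 4, and 6.03 to 7.07 on the other 5. The mean of Hbb and Hba-a3, a sign of blood, was highest on thymus male 2 (8.63) and male 3 (8.43), and 6.51 to 7.75 on the others. Thymus male 2 and male 3 were also highest for these granule genes (7.07 and 7.36), but the other arrays did not rank alike. Thymus male 4, lowest for the granule genes (4.77), read 7.61 for the globins. Thymus female 5, lowest for the globins (6.51), read 6.12 for the granule genes. The part of blood in the thymus levels was not tested. Of the measured defensins, Defa5 and Np4 were bright in thymus too. Defa5 averaged 10.37 ± 0.72 in thymus and 14.62 ± 0.08 in marrow, and Np4 9.02 ± 0.69 in thymus and 14.21 ± 0.08 in marrow. Of the other organs only spleen passed the threshold for Defa5 (9.88) and Np4 (8.62), and none did for Camp. Defa7 stayed at 2.80 to 2.89 in thymus and averaged 9.99 ± 0.42 in marrow. Defensins are near copies, so the split between them is uncertain. Lyz2, shared with macrophages, averaged 12.09 ± 0.30 in thymus and 14.31 ± 0.10 in marrow. Stfa2l2, of a family of protease inhibitors, differed by -9.03 ± 0.33 and read 5.71 on thymus male 3 and 3.17 to 3.67 on the other thymus arrays.

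The C/EBP letters TTGCNNAA were in the promoters of 6 of 15 called neutrophil genes (40.0%), against 8.2% of all promoters and 7.5% of those of all genes called higher in marrow. The same 15 promoters held the GATA letters in 4 (26.7%), against 6.6% of all promoters, and the RUNX letters in 4 (26.7%), against 11.1%. Lcn2 and Np4 are shown because they held a C/EBP match. Np4 also held a GATA match and 2 RUNX matches, all on the reverse strand.
Lcn2, chr3:36081781-36082030, minus strand: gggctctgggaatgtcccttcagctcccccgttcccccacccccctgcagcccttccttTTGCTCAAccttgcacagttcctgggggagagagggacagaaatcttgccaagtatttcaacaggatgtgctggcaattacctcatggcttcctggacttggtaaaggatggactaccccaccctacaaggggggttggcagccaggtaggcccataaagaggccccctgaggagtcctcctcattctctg
Np4, chr16:77199643-77199892, minus strand: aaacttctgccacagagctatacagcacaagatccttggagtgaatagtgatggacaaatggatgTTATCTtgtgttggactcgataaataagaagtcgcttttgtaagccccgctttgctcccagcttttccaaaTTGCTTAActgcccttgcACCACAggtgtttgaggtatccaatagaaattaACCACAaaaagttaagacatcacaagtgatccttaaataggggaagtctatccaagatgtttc

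Among myeloid transcription factors and receptors, 11 of 21 measured genes were called higher in marrow and 1 higher in thymus (Tlr2, at 8.08 in thymus and 6.29 in marrow, named after its values were seen), with a median of -2.04. Csf3r, the receptor for granulocyte growth factor, averaged 2.62 ± 0.60 in thymus and 9.17 ± 0.43 in marrow. Cebpa, which opens the granulocyte path, averaged 5.95 ± 0.37 in thymus and 8.97 ± 0.18 in marrow, with 4 of 5 probesets called. Cebpe, needed for late granules, differed by -4.65 ± 0.19 with a marrow mean of 6.79, just above the threshold, and was not called in the male arrays alone, where that mean fell below it. Itgam (CD11b) differed by -5.17 ± 0.41 and read 5.78 on marrow male 1 and 7.86 to 9.45 on the other marrow arrays. Irf8, used by monocytes, dendritic cells and B cells, was level at 9.33 ± 0.25 in thymus and 9.44 ± 0.29 in marrow, and Itgb2, a leukocyte integrin chain, differed by 0.85 ± 0.11, under the 2-fold limit.

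Platelet genes were higher in marrow, with 13 of 14 measured genes of megakaryocytes called higher in marrow and a median of -6.11. Tubb1, the tubulin of platelets, lay between 2.36 and 2.95 in thymus, against 12.05 to 12.73 in marrow, a difference of -9.75 ± 0.11. Ppbp, a platelet chemokine, differed by -8.79 ± 0.22, the clotting cofactor F5 by -7.32 ± 0.15, and the platelet receptor chains Itga2b and Gp9 by -6.99 ± 0.18 and -6.84 ± 0.10. Of 18 measured genes of mast cells, basophils and eosinophils, 11 were called higher in marrow and none in thymus, with a median of -3.60. Epx, the eosinophil peroxidase, ranged from 2.39 through 2.44 to 2.65 in thymus, against 12.61, 12.99 and 13.33 in marrow. Prg2, the major basic protein of eosinophils, differed by -8.82 ± 0.26. Mcpt8, a protease known from basophils in the mouse, differed by -8.52 ± 0.24, and the chymase Cma1 and the IgE receptor chain Ms4a2 by -6.18 ± 0.29 and -4.58 ± 0.15. No other organ passed the threshold for Epx or Mcpt8.

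B lineage genes were higher in marrow for 10 of 13 measured genes, with none higher in thymus and a median of -3.68. Ebf1, which sets the B cell programme, averaged 3.11 ± 0.46 in thymus and 8.71 ± 0.69 in marrow on the brightest of 3 called probesets. Vpreb3, of the precursor B cell receptor, averaged 2.16 ± 0.03 in thymus and 7.76 ± 0.45 in marrow, and Btk, the kinase after the B cell receptor, differed by -4.29 ± 0.15. Cd24, known in the mouse from immature B cells and thymocytes, read 4.45 to 5.17 in thymus, against 10.37 to 11.98 in marrow. Cd79b, a chain of the B cell receptor, was uneven in thymus, from 2.20 through 4.24 to 5.95, against 7.83, 8.83 and 9.53 in marrow. Cr2 (CD21) of mature B cells and follicles was not called, at 5.93 ± 1.06 in thymus and 6.54 ± 0.63 in marrow. Of 6 measured plasma cell genes, 3 were higher in marrow, with Jchain, which joins secreted antibodies, at 8.79 ± 0.81 in thymus and 11.82 ± 0.18 in marrow and Xbp1, a factor of secretory cells, differing by -1.13 ± 0.08.

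Genes of stem and progenitor cells were mostly not called. Of 12 measured, 3 were called higher in marrow and 1 higher in thymus, with a median of -0.08 (-0.37 after centring). Of the 8 not called, 6 lay below the threshold in both organs, so the median rests in part on low values. Kit (2.71 in thymus, 2.70 in marrow) and Flt3 (3.47 and 3.82), named after their values were seen, were among them. Lyl1, a factor of blood progenitors, averaged 5.50 ± 0.46 in thymus and 10.68 ± 0.09 in marrow, and Procr, a surface marker of stem cells that vessels also carry, differed by -2.41 ± 0.20. Ly6e, a surface protein also used by thymocytes, was the member higher in thymus, by 2.11 ± 0.09. Meis1, a stem cell factor, was level at 7.36 ± 0.22 in thymus and 7.53 ± 0.44 in marrow.

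Bone genes were measured at high levels in the marrow samples, with 10 of 16 measured genes of marrow stroma, bone and osteoclasts called higher in marrow, 1 higher in thymus and a median of -3.67. Bglap (osteocalcin), made by osteoblasts, ranged from 2.04 through 2.07 to 2.09 in thymus, against 12.14, 12.78 and 14.10 in marrow, and no other organ read above 2.63. The bone sialoprotein Ibsp averaged 4.54 ± 1.52 in thymus and 11.19 ± 0.62 in marrow, and Ctsk, the collagenase of osteoclasts, differed by -4.89 ± 0.24. Other osteoclast members did not follow Ctsk. Acp5 was level, at 10.01 in thymus and 10.11 in marrow, and not called. Calcr and Tnfrsf11a stayed below the threshold in both organs. The member higher in thymus was Postn, at 7.41 in thymus and 5.31 in marrow. Calcr, Tnfrsf11a and Postn are named after their values were seen. The collagen chains Col1a1 and Col1a2 differed by -7.75 ± 0.20 and -7.50 ± 0.17. Col11a1, a cartilage and bone collagen, was the only 1 of 8 measured cartilage genes to be called, and read 12.60 on marrow male 1 and 9.33 to 10.56 on the other 8 marrow arrays. Marrow male 1 also had the highest Bglap (14.10) and the lowest Itgam (5.78) and RT1-Ba (6.21) of the marrow arrays. The part of bone in these marrow differences was not tested.

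Macrophage and dendritic cell genes went both ways. Of 13 measured, 5 were called higher in marrow and 1 higher in thymus, with a median of -0.33. Under either rescaling 6 were called higher in marrow, and the median was -0.62 after centring. Csf1r, the macrophage growth factor receptor, averaged 7.55 ± 0.45 in thymus and 9.90 ± 0.36 in marrow, and Itgax (CD11c) differed by -3.63 ± 0.22. C1qa, a complement chain made by macrophages, was high and close in both organs, at 10.29 ± 0.21 in thymus and 10.62 ± 0.17 in marrow. Cd83, a marker of mature dendritic cells that thymocytes and epithelium can also carry, was the member higher in thymus, by 4.78 ± 0.17.

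Cell division was high in both organs and nearly level. Of 26 measured genes, 25 were expressed in thymus and 25 in marrow, 1 was called in each direction, and the median difference was -0.25. After quantile normalization 0 were called higher in thymus and 1 higher in marrow (median -0.33), and after centring 0 and 3 (median -0.53). Pcna, the clamp of replication, ranged from 12.88 through 13.04 to 13.14 in thymus, against 12.97, 13.08 and 13.18 in marrow, a difference of -0.03 ± 0.04 (adjusted p = 0.455). Mki67, found in dividing cells, averaged 11.82 ± 0.25 in thymus and 12.51 ± 0.16 in marrow, short of 2-fold. Tk1, which salvages thymidine, was called higher in marrow, at 8.90 ± 0.27 in thymus and 10.91 ± 0.24 in marrow. Birc5 was called higher in thymus (1.02 ± 0.19), and leaving out any of 8 single arrays, either rescaling or using the female arrays alone brought it to 1.00 or below.

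Death and survival genes were called for 5 of 15 measured, 4 of them higher in thymus, with a median of 0.37 (0.09 after centring). Fas, the death receptor, ranged from 10.94 through 11.10 to 11.47 in thymus, against 5.15, 5.47 and 6.43 in marrow, a difference of 5.62 ± 0.16. Casp8, the protease that Fas engages, differed by 2.09 ± 0.08, and Bcl2l11 (Bim), which kills thymocytes in negative selection in the mouse, by 1.47 ± 0.08 on 1 of 3 probesets. Bcl2l1 (Bcl-xL), a survival protein of red cell precursors and of thymocytes, went the other way on its brightest probeset, at 8.53 ± 0.29 in thymus and 10.03 ± 0.21 in marrow, while 1 of its 3 probesets was called higher in thymus. Mcl1 (0.37 ± 0.12) and the glucocorticoid receptor Nr3c1 (0.88 ± 0.14) were expressed in both organs and did not reach 2-fold.

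Among cytokine receptors and their signal proteins, 6 of 20 measured were called higher in thymus and 4 higher in marrow, with a median of 1.01. After either rescaling these counts were 4 and 5. Il2rg, the common gamma chain, averaged 12.41 ± 0.18 in thymus and 8.20 ± 0.44 in marrow. Il7r, on which early thymocytes and B cell precursors both depend in the mouse, averaged 8.71 ± 0.74 in thymus and 7.00 ± 0.71 in marrow. Il9r read 6.97 to 7.73 in thymus, against 2.03 to 2.10 in marrow, and passed the threshold in no other organ. The decoy receptor Il1r2 and Il6r differed by -3.44 ± 0.27 and -2.49 ± 0.14. Of 11 measured chemokine receptors and homing genes, 1 was called, with a median of -0.02 (0.12 after quantile normalization, -0.31 after centring, each with 1 further gene called higher in marrow): Itgal (LFA-1), at 10.04 ± 0.37 in thymus and 7.84 ± 0.98 in marrow. Cxcr4, which holds progenitors in the marrow and acts in early thymocytes, was high in both, at 12.02 ± 0.20 in thymus and 12.33 ± 0.13 in marrow.

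**Figure D4:**
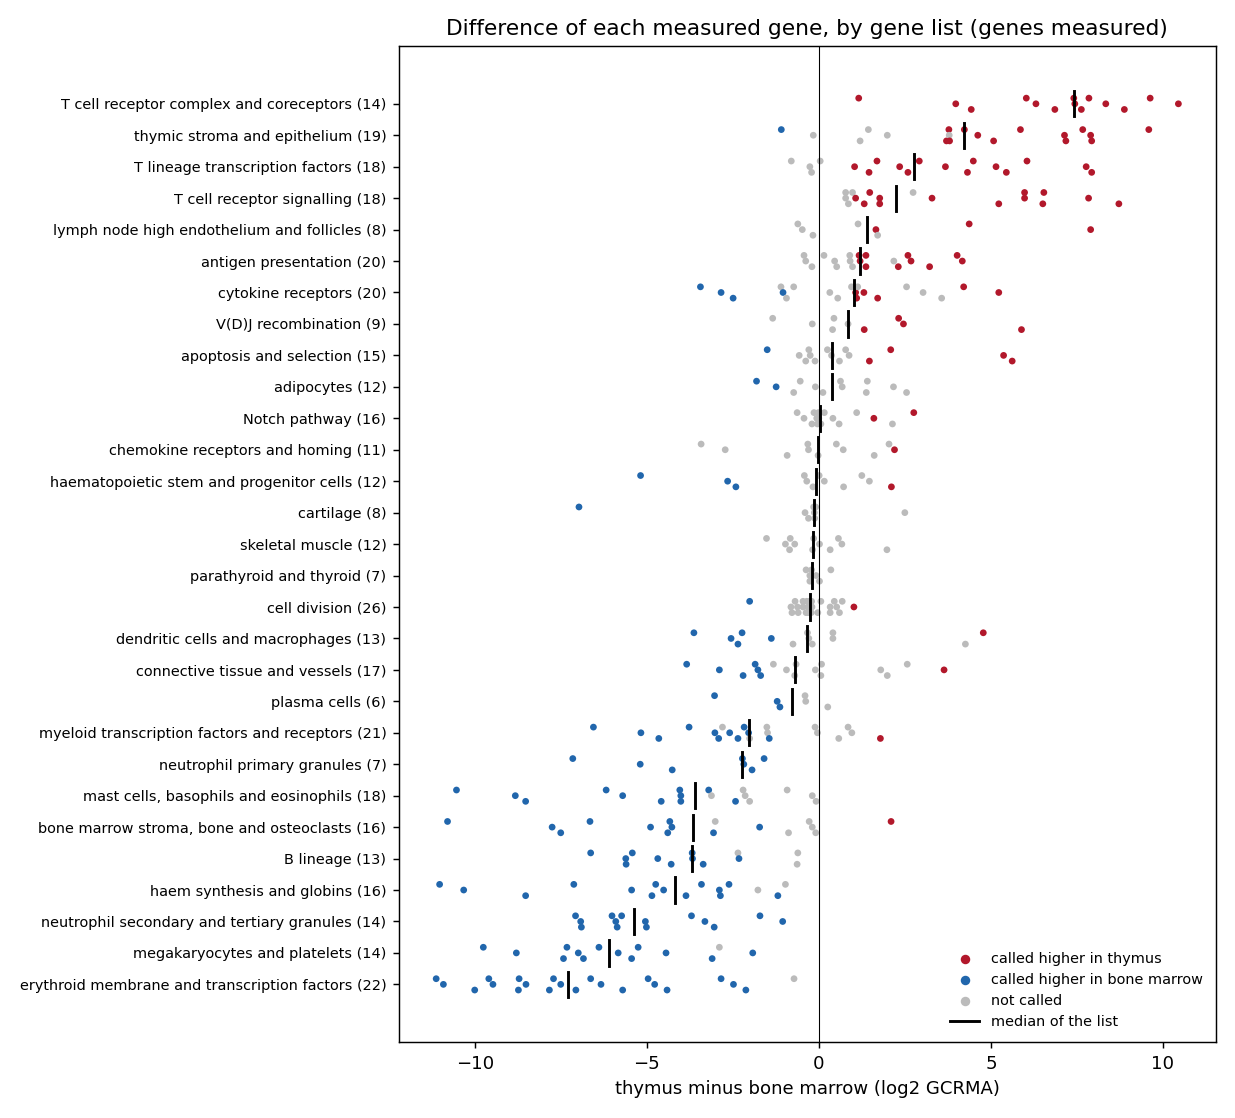
Difference between thymus and bone marrow (x axis, log2 GCRMA, positive where thymus was higher) of each measured gene, by gene list (y axis, number measured in brackets), red where called higher in thymus, blue where called higher in bone marrow and grey where not called. Black bars give list medians, which run from 7.42 for the T cell receptor complex to -7.28 for erythroid genes.

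Markers of other tissues that a sample could hold were counted as well. Of 8 measured lymph node genes, 3 were called higher in thymus. These were Ccl21, Cxcl13 and Ltb. The mean level of this list ran from 5.73 to 7.20 over thymus arrays, against 4.03 to 4.36 over marrow arrays. Thymus male 4 was the high array: it read 9.52 for Cxcl13, a chemokine of follicles, against 7.20 to 8.28 on the other 7, 8.25 for Cr2 against 4.89 to 6.41, and 8.21 for Glycam1, a ligand of lymph node vessels, against 2.79 to 6.13. Without this array 3194 probesets were called higher in thymus and 1756 in marrow. No skeletal muscle gene of 12 was called, but Acta1, the muscle actin, read 8.88 on thymus male 2 and 2.38 to 5.28 on the other thymus arrays, and 9.55 and 8.12 on marrow females 2 and 5 against 2.81 to 6.06 on the other marrow arrays. Myl11, a light chain of fast muscle, was highest on the same 3 arrays, at 7.32 on thymus male 2 and 7.30 and 6.21 on marrow females 2 and 5. Myh1, another member, did not set these 3 arrays apart. It averaged 9.46 ± 0.31 in thymus and 9.64 ± 0.31 in marrow, the only member with a mean above the threshold in either organ. Thymus male 2 was the highest thymus array for Myh1 (9.82, next 9.73), but marrow female 2 was the lowest marrow array. Myh1 also passed the threshold in all of the other 29 organs. Of 12 measured adipocyte genes, 2 were called, both higher in marrow: Cfd (-1.81 ± 0.13) and Fabp4 (-1.24 ± 0.26), which was not called in the male arrays alone (-0.74). Over the list the median was 0.37 and 7 of 12 differences were positive. Among them Pck1 (2.55), Ucp1 (2.17), Adipoq (1.41) and Cidea (1.38), named after their values were seen, stayed below the threshold in both organs on average. Of 17 measured connective tissue and vessel genes, 6 were higher in marrow, among them Lum, a matrix protein (-3.84 ± 0.17), and Tagln of smooth muscle was higher in thymus (3.64 ± 0.28). The part of lymph node, muscle, fat and connective tissue in the differences above was not tested. None of 7 measured thyroid and parathyroid genes was called or expressed in either organ.

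**Figure D5:**
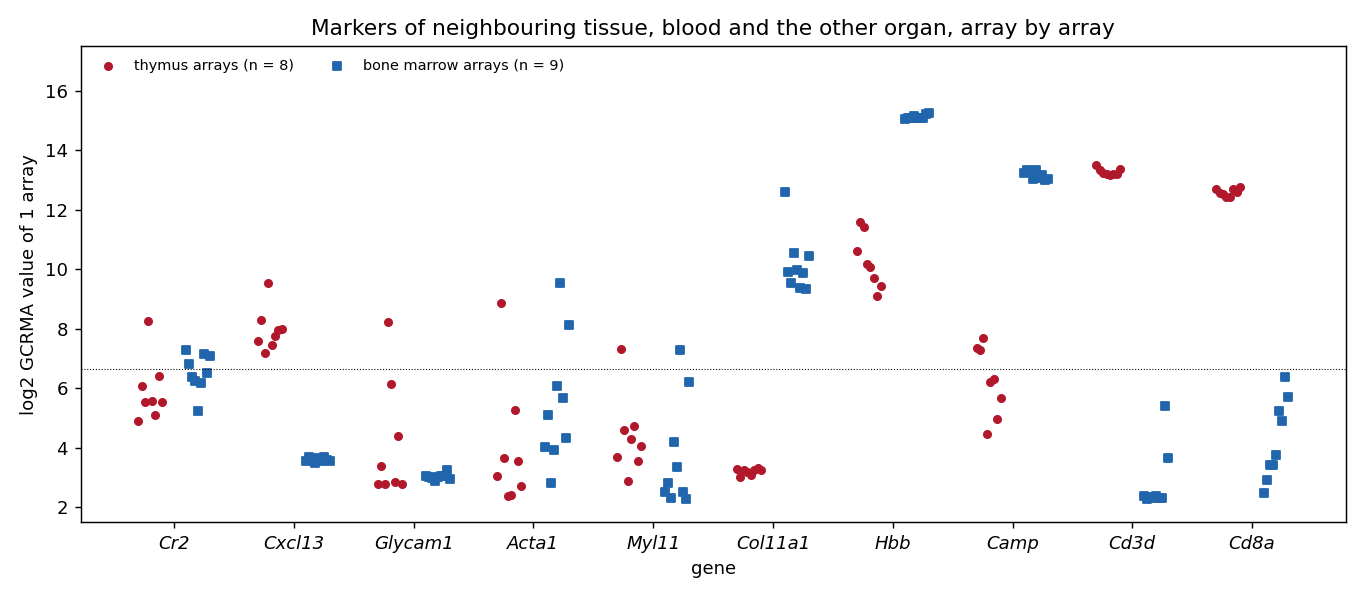
Value of each array (y axis, log2 GCRMA) for 10 genes that mark lymph node, muscle, bone, blood or the other organ (x axis), thymus arrays as red circles on the left of each gene and bone marrow arrays as blue squares on the right, with the expression threshold as a dotted line. Thymus male 4 is the array highest for Cr2, Cxcl13 and Glycam1, and thymus male 2 the thymus array highest for Acta1 and Myl11.

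The other 29 organs placed these genes. Of 1698 genes called higher in thymus, 39 (2.30%) passed the threshold in no other organ and 442 in all of them, and of 1220 called higher in marrow 55 (4.51%) and 204 did so. Spleen had the highest mean among the other organs for 9 of the 12 largest marrow genes, and a lymph node for 9 of the 12 largest thymus genes. Over all called genes spleen was that organ for 47 (2.77%) of those higher in thymus and 186 (15.2%) of those higher in marrow, and a lymph node for 331 (19.5%) and 41 (3.36%). Cd3d, for example, averaged 11.13 in the mandibular lymph node and Alas2 13.16 in the spleen. The highest other organ could lie below the threshold, as spleen did for Epx (4.32). These shares were not computed over all genes, so they have no background to be read against.

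The difference between the organs was also set against sex. In a fit of the 4 groups of organ and sex, the difference between thymus and marrow itself differed between males and females for 3 of 31042 probesets (0.00966%) at an adjusted p under 0.05, and for 1526 at an unadjusted p under 0.05. All 3 lay below the expression threshold in both organs. Without bone marrow male 5 and bone marrow female 2 there were 7. The remaining marrow arrays labelled female still had intermediate levels of Eif2s3y and Xist, so the sexes were not cleanly parted in marrow. In the comparison of the organs without bone marrow male 5 and bone marrow female 2, 3131 probesets were called higher in thymus and 1741 in marrow. No call changed direction.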

How the data were processed

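The deposited values are log2 expression values that the authors made from Affymetrix RAE230_2 arrays with GCRMA. No source used here gives the GCRMA version or says which arrays were normalized together. The table holds 31042 probesets, of which 20826 have 1 gene symbol, 436 several and 9780 none. No further normalization was applied, and the medians of the 17 arrays were 3.98 to 4.18. Thymus minus bone marrow was fitted per probeset with limma 3.58.1 (R 4.3.3), with Benjamini-Hochberg adjustment over all probesets. A call needed an adjusted p under 0.05, a difference over 2-fold and a mean above the expression threshold of the methods in at least 1 organ. The methods' t-test was an alternative. The code was tested on simulated data. Each gene was read on its probeset of highest mean over the 17 arrays. Genes were named by rule: the 12 largest differences each way among called genes whose arrays did not overlap, and in each list up to 6 called members of largest difference and up to 3 uncalled members of highest mean. Members and the 29 lists were chosen with earlier results of these data known. P-values measure the spread between arrays, each taken as 1 animal, and the number of arrays limits the precision. The methods took all organs from the same rats, so some animals gave both organs. The main fit treated the arrays as independent, and fits with a replicate block are given below. Values near 2 to 3 are the low end of the scale, so the size of the largest differences depends on the authors' background correction. The table holds 0 control probesets, so the planned check of 3′ against 5′ signal was not run. Promoters came from RefSeq (GRCr8).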

Additional observations from a re-analysis of the deposited data

Results flagged for a closer look

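In 31 of 266 gene-by-group sets of arrays, 14 of them in thymus, 1 array lay further from the others than Dixon's critical value allows, where chance gives about 1 in 20. Bone marrow female 4 held 7 of these values: Cd3d 5.42, Cd247 5.62, Irf8 10.08, Il7r 5.40, Cfd 11.14, Fabp4 10.66 and Glycam1 3.26. Bone marrow male 1 held 4, with Itgam at 5.78, RT1-Ba at 6.21, Bcl2l1 at 9.52 and Col11a1 at 12.60. Bone marrow male 5, whose sex genes went against its label, held Lef1 at 4.38, Cd24 at 10.37 and Rsad2 at 13.24. Bone marrow male 2 stood apart for Rbpj (8.80) and Krt8 (2.37), and bone marrow male 4 for Zap70 (2.83). Among thymus arrays, male 4 stood apart for Notch1 (8.51), Fech (7.64), Cr2 (8.25) and Cxcl13 (9.52), and male 2 for Epx (2.65), Acta1 (8.88) and Myl11 (7.32). Thymus male 3 stood apart for Stfa2l2 (5.71) and Rbpj (8.92), male 1 for Klf1 (2.52), female 1 for Ppbp (3.12), female 3 for Cebpe (2.39), and female 4 for Itgal (10.86) and Tpsab1 (2.46). The causes were not tested.

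The difference between the organs differed between males and females, in the test of that difference, for 3 probesets, all below the expression threshold in both organs. For Rnf13 it was 0.70 in males and -0.02 in females, 0.73 apart (limma, adjusted p = 0.000303). For the other 2, which carry no gene symbol, it was 0.38 in males and 1.77 in females (-1.38 apart, adjusted p = 0.0202) and -0.19 in males and 0.63 in females (-0.82 apart, adjusted p = 0.0089).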

How the results depend on the processing

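No call changed direction under any alternative. With no expression threshold 8424 probesets were called (5145 higher in thymus, 3279 higher in bone marrow), with no fold threshold 9185 (6179 and 3006), and at 4-fold 2116 (1155 and 961). With 1 probeset per gene 2918 were called, 1698 of them higher in thymus. Leaving out each array in turn gave 4842 to 4950 calls, 3090 to 3201 higher in thymus and 1726 to 1763 higher in marrow. The count of probesets whose organ difference differed by sex was 3, but 6 with a trended robust spread, 7 after quantile normalization, 7 without both marrow arrays at odds with their sex label, and 2 to 16 with 1 array left out (16 without thymus male 4). Of 4389 gene values under an alternative, 4338 kept their direction and call, 28 lost the call and 23 gained it. Organs of the same number in the labels did not deviate together (7 pairs, correlations -0.149 to 0.088), so the numbers were not taken as pairs. With the replicate block 4851 probesets were called (3127 and 1724), and with it as a random block 4897. The check on 3′ and 5′ control probesets was not run. For genes at 2 to 3 log2 in an organ, signal over background limits how exactly a difference can be read.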

Other observations

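Interferon-induced genes, chosen after their values were seen, went in opposite directions. Rsad2 (viperin) averaged 5.80 ± 0.43 in thymus and 13.62 ± 0.15 in marrow (SD, n = 8 and 9), a difference of -7.82 ± 0.15 (SE), with arrays that did not overlap. Mx1, Usp18 and Isg15, which the same signal induces, were called higher in thymus, by 4.21 ± 0.25, 4.11 ± 0.22 and 2.91 ± 0.29. Ifit2 was called higher in marrow, at 6.31 ± 0.23 in thymus and 7.35 ± 0.20 in marrow, but not in the male arrays alone (-0.91). Among the other organs Rsad2 was highest in spleen, at 12.71.

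Some mast cell genes, also chosen after their values were seen, read differently on marrow arrays by sex label. The tryptase Tpsab1 read 2.72 to 2.77 on the 5 marrow arrays labelled male and 5.04, 8.75, 8.29 and 6.39 on those labelled female, against 2.46 to 2.80 in thymus. The protease Cpa3 read 5.49 to 6.44 on marrow arrays labelled male and 6.85 to 9.31 on those labelled female. The sex labels of the marrow arrays are uncertain, so this split is one of labels. Bone marrow male 5, with Xist at 7.10, read 2.77 for Tpsab1. Bone marrow female 2, with Eif2s3y at 8.43, read 5.04. The organ difference of Tpsab1 did not differ by sex at the threshold (limma, adjusted p = 0.13), nor did that of Cpa3 (0.847).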
